A study of Mus musculus with 2 samples.

Results

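The spliceosome proteins described here were 47 protein-coding genes, chosen by symbol from 20330 gene identifiers: every symbol that starts with Snrp, with Lsm and a number, with Sf3a, with Sf3b or with Prpf. Adipose-tissue macrophages (ATM), the macrophages of fat, were sorted by FACS with antibodies to F4/80 and CD11b from visceral fat of C57BL/6 mice that had been fed a high-fat diet for 12 weeks. Knockout (KO) mice were hMRP8cre+; Hif-1α fl/fl; ApoE-/-, and wild-type (WT) mice were hMRP8cre-; Hif-1α fl/fl; ApoE-/-, so that by their labels both genotypes were ApoE-/- with floxed Hif-1α alleles and differed in the Cre recombinase. In hMRP8cre mice, Cre is driven by the human promoter of MRP8 (S100A8), a myeloid gene. There was 1 poly(A) RNA-seq library per genotype. The diet is given from 4 weeks of age, and for these libraries the age at sampling and whether animals were pooled were not stated. The comparison asks how the levels of these genes differed between the KO and the WT library. With 1 library per genotype there is no replicate check, no statistical test between the genotypes was run and no p-value is given.

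Introns are removed from pre-mRNA by the spliceosome, which is built from small nuclear ribonucleoproteins (snRNP), each a small nuclear RNA (U1, U2, U4, U5 or U6) with its proteins. The Sm proteins form a ring around the RNA of U1, U2, U4 and U5, and the related LSm proteins form a ring on the end of U6. U1 recognises the 5′ splice site, U2 recognises the branch site with the help of SF3A and SF3B, and U4/U6 and U5 then join as a tri-snRNP, to which several Prpf proteins belong. A second LSm ring works in the cytoplasm in mRNA decay, and Lsm10 and Lsm11 take part in the U7 snRNP, which processes the 3′ end of histone pre-mRNA.

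Levels were given in FPKM (fragments per kilobase of transcript, scaled to the mapped fragments), which can be compared between genes because it is per length. Differences were taken as log2(FPKM + 1), KO minus WT, a scale that makes differences of low genes look smaller. A gene was compared where it had at least 1 FPKM in at least 1 library, and it was called higher or lower at 3-fold on that scale. Of all 10297 genes compared, 13.6% were called higher and 13.7% lower, and the median difference was 0.03. The depth, estimated from the smallest step of the FPKM values, was about 5870000 fragments in the WT library and 7470000 fragments in the KO library, and the fragment numbers below are estimates on this basis that cover counting error only. The targeted gene Hif1a was at 30.4 FPKM in the WT and at 21 FPKM in the KO library. Apoe, labelled -/- in both genotypes, was at 94.3 FPKM in the WT and 117 FPKM in the KO library. These values are for whole genes, and neither the floxed exon of Hif1a nor the targeted part of Apoe was analysed here, so they do not check the labels. Adgre1, which encodes F4/80, was at 299 and 239 FPKM, Itgam, which encodes CD11b, was at 128 FPKM in both, and the 12 macrophage markers summed to 16454 FPKM in the WT and 15900.1 FPKM in the KO library with none called. The 12 neutrophil markers summed to 197 FPKM in the WT and 572 FPKM in the KO library, with 8 of 8 compared above WT, 3 of them called, and Ltf, Camp, Mmp8 and Elane at 0 in both. S100a8 (73.3 and 182 FPKM) and S100a9 (63.4 and 301 FPKM) made up most of these sums, and the other 10 markers summed to 60 and 88.3 FPKM. The 6 eosinophil markers summed to 6.5 and 33.1 FPKM, with Siglecf, Prg2, Epx and Ear1 at 0 in both and the 2 compared, Ccr3 and Alox15, called higher. The 6 fibroblast markers summed to 43.2 and 84.3 FPKM, with 5 of 5 compared above WT and 2 called. Markers of T cells summed to 5.35 and 2.07 FPKM, of adipocytes to 95.9 and 93 FPKM and of B cells to 5.56 and 6.89 FPKM. Those of dendritic cells summed to 125 and 140.3 FPKM, of endothelial cells to 14.6 and 16.1 FPKM and of mesothelial cells to 0 and 7.84 FPKM. The part of these cells in the differences below was not tested, and in such bulk samples fewer cells of a type and less RNA per cell cannot be told apart.

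The 47 genes together summed to 1781 FPKM in the WT library and 1255 FPKM in the KO library. Of the 45 compared, 21 were above and 24 below their WT level, with a median difference of -0.06. The rule names this contrast, so the counts describe these 2 libraries and support nothing further. At 3-fold, 8 genes (17.8% of those compared, beside 13.7% of all genes) were lower in the KO library: Lsm10, Lsm12, Lsm2, Lsm3, Snrpd1, Snrpd3, Snrpe and Prpf38a. A further 3 genes (6.67%, beside 13.6% of all genes) were higher: Lsm5, Prpf3 and Prpf40b. Just past the threshold lay Lsm3 at -1.63 and Prpf40b at 1.64, and just short of it Lsm1 at 1.57, Lsm11 at -1.57 and Prpf6 at 1.55. Lsm8 and Snrpn were listed at 0 in both libraries and were not compared. Lsm1, Lsm5 and Prpf40b were listed at 0 in the WT library only, and Prpf38a in the KO library only. An exact 0 in a table without counts can be a failed estimate, and of 15 genes that assemble snRNP, which most cells use, 5 were also listed at 0 in the WT and 6 in the KO library, so a 0 here is not read as absence. Among the 36 genes with at least 1 FPKM in both libraries, 5 were called lower (Lsm10, Lsm12, Lsm2, Lsm3 and Snrpe) and 0 higher, beside 5.89% called lower and 5.66% higher of all 7586 such genes. The plot of levels shows that the 3 lower Sm genes and Lsm10 had the widest gaps downward, and Lsm5 and Prpf3 the widest upward.

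**Figure D1:**
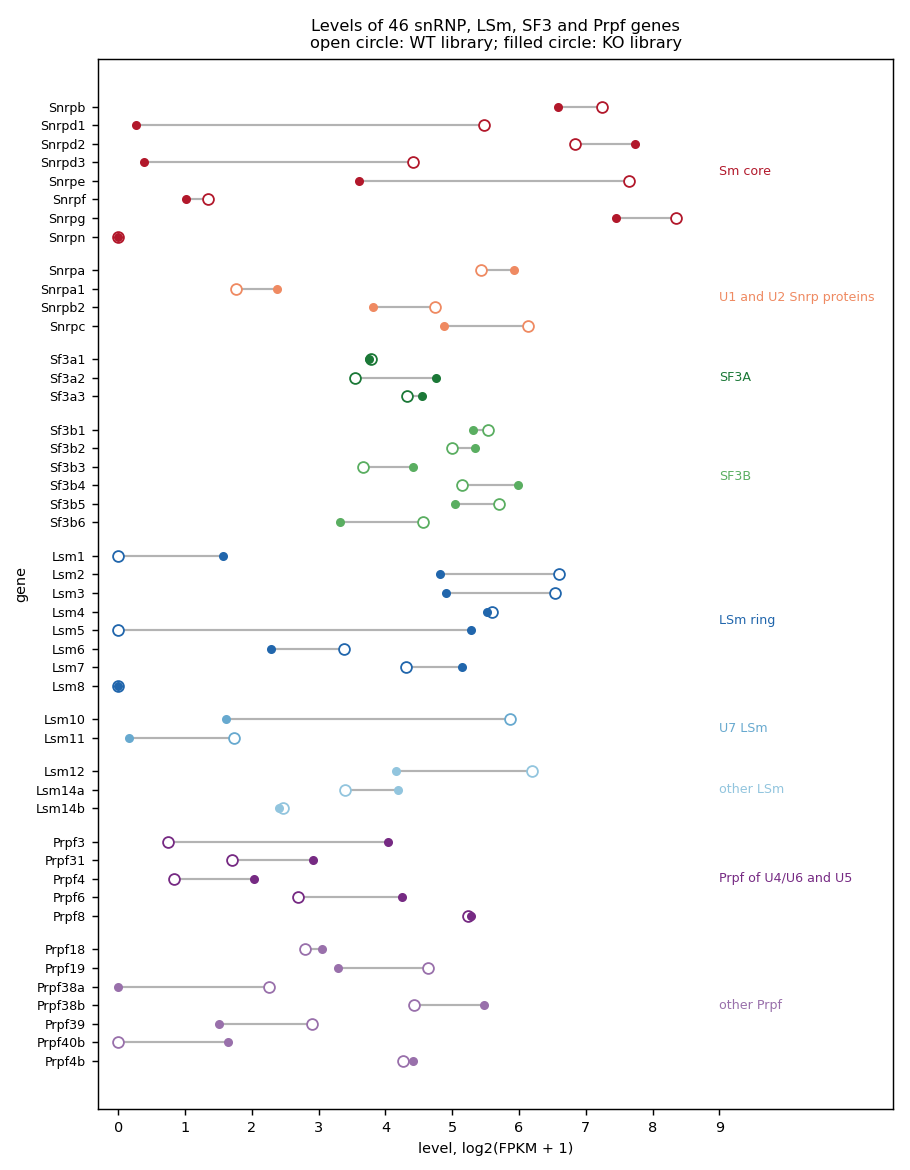
Level of 46 of the 47 genes in log2(FPKM + 1), with an open circle for the WT library and a filled circle for the KO library, joined by a grey line and grouped by role. Snrpd1, Snrpd3, Snrpe and Lsm10 sit far to the left in the KO library, Lsm5 and Prpf3 far to the right, and the SF3A and SF3B genes all lie within the 3-fold range, from -1.23 for Sf3b6 to 1.22 for Sf3a2.

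The 250 bases before the transcription start are shown for 5 of these genes, the 3 with the largest negative differences among those with a start region and the 2 with the largest positive ones, so that the start regions of genes at both ends can be read side by side. Sequences are from RefSeq on GRCm38.p6, which is not the build the authors used, and are written 5′ to 3′ on the strand of the gene. The capitals mark matches on either strand to any of 5 motifs: the ETS core CCGGAAG, the NRF1 motif TGCGCA, the CCAAT box, the GC box GGGCGG and the HIF core ACGTG.
Lsm10, chr4:126096403-126096652, plus strand: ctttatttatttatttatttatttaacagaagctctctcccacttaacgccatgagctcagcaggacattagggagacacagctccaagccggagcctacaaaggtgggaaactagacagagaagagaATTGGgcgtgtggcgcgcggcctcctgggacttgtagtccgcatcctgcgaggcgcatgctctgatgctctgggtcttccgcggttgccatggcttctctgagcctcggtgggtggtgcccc
Snrpd3, chr10:75517792-75518041, plus strand: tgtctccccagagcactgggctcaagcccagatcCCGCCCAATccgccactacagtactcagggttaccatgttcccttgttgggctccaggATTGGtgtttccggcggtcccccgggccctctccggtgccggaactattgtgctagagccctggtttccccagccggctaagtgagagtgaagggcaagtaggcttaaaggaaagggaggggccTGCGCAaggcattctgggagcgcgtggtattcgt
Snrpe, chr1:133610281-133610530, minus strand: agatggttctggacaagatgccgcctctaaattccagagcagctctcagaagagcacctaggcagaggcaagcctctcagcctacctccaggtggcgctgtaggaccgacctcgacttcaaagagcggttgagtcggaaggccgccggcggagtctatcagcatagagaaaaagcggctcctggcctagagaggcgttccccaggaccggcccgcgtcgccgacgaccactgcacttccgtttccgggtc
Lsm5, chr6:56704700-56704949, minus strand: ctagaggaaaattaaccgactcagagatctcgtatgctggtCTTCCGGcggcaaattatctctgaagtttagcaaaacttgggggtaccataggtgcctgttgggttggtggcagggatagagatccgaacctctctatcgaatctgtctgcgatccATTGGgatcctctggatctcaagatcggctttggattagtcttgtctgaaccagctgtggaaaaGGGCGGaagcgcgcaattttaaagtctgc
Prpf3, chr3:95855754-95856003, minus strand: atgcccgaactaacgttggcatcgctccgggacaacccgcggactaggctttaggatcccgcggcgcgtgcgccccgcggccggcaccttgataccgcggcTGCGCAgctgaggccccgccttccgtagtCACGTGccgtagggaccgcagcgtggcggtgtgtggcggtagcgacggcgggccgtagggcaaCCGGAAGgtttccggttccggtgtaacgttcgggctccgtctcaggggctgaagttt

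The Lsm10 window held a single CCAAT box, and the Snrpe window held none of the 5 motifs. The Snrpd3 window held a CCAAT box that overlaps a GC box, a further CCAAT box and an NRF1 motif. The Lsm5 window held an ETS core, a CCAAT box and a GC box, and the Prpf3 window an ETS core, an NRF1 motif and the letters CACGTG. These letters read the same on both strands and hold a HIF core on each. Prpf3 has a further RefSeq start region, not shown, which overlaps this window and held the NRF1 motif alone. In all, 38 of the 47 genes matched 48 RefSeq start regions. Start regions of the same gene were counted separately even where they overlap, as for Sf3b2 and Lsm7, so the shares below are per start region and not per gene. An ETS core was found in 14 of the 48 (29.2%), in 13.8% of the 10399 start regions of the genes compared and in 6.91% of all 32851. An NRF1 motif was also found in 14 of the 48 (29.2%), beside 11.4% and 6.43%. A HIF core was found in 33.3% of the 48, beside 22.1% and 16.6%, a CCAAT box in 39.6%, beside 34.6% and 33.8%, and a GC box in 47.9%, beside 58.1% and 32.7%. Of the 6 lower genes with a start region, 0 held an ETS core, 1 an NRF1 motif, 1 a HIF core, 4 a CCAAT box and 4 a GC box. Of the 3 higher genes, 2 held each of the 5 motifs. Of the 27 genes not called that had a start region, 11 held an ETS core, 8 an NRF1 motif, 10 a HIF core, 9 a CCAAT box and 15 a GC box. These groups are too small to compare. A match is a description of the letters and not a site of binding.

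Among the Sm genes more were below than above their WT level. Of the 7 genes compared, 6 were below WT, with a median difference of -0.90. At 3-fold 3 (42.9%, beside 13.7% of all genes) were called lower and 0 (beside 13.6%) higher. The sum over the set was 857 FPKM in the WT and 494 FPKM in the KO library. Snrpe (SmE; ENSMUSG00000090553, chromosome 1) was at 199.6 FPKM in the WT library and 11.2 FPKM in the KO library, which is 17.8-fold lower and a difference of -4.04. This step rested on about 589 and 42.1 fragments. Snrpd1 (SmD1; ENSMUSG00000002477, chromosome 18) was at 43.6 FPKM in the WT and 0.197 FPKM in the KO library, a difference of -5.22. The KO value was about 1 fragment against 171 in the WT. From these whole fragments, after division by depth, the ratio was 218, with an exact 95% counting interval of 38.5 to 8641. The levels themselves gave 221-fold. The interval covers counting only and is no test between the genotypes. Snrpd3 (SmD3; ENSMUSG00000020180, chromosome 10) was at 20.2 FPKM in the WT and 0.311 FPKM in the KO library, a difference of -4.02, from about 206 and 4.04 fragments. These 3 genes lay between the percentiles 68.1 and 96 of the genes above 0 in the WT library and between 4.17 and 53.9 in the KO library.

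The other Sm genes differed far less. Snrpg (SmG) had the highest level of all 47 genes in the WT library, 327 FPKM, and was at 174 FPKM in the KO library, a difference of -0.90. Snrpb (SmB) was at 151 and 94.7 FPKM, a difference of -0.67. Snrpd2 (SmD2) was the exception in direction, at 114 FPKM in the WT and 213 FPKM in the KO library, a difference of 0.89, and it had the highest level of all 47 genes in the KO library. Snrpg shares 18.6% and Snrpd2 11.7% of their 50-base stretches with other annotated genes, which leaves their values less certain. Snrpf (SmF) was low in both libraries, at 1.53 and 1.02 FPKM from about 7.76 and 6.58 fragments, and 65.9% of its exon bases overlap Ccdc38 on the opposite strand, so the 2 genes cannot be told apart by an unstranded library. Snrpn, a paralogue of Snrpb known for its expression in brain, was listed at 0 in both.

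The ring uses its 7 proteins together, but the levels of their mRNA were not even. In the WT library the highest level was 213 times the lowest, and 16.2 times without Snrpf, whose value is uncertain. The median was 114 FPKM against 11.2 FPKM in the KO library. Snrpg, Snrpe and Snrpb held 79% of the WT sum, whereas Snrpd2, Snrpg and Snrpb held 97.4% of the KO sum. Without Snrpe the sum was 657 FPKM in the WT and 483 FPKM in the KO library.

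Of the proteins particular to U1 and U2 with an Snrp symbol, 2 were above and 2 below WT, none was called, and the sum was 139.7 FPKM in the WT and 105 FPKM in the KO library. Snrpc, which helps U1 to hold the 5′ splice site, was at 69.2 and 28.5 FPKM, a difference of -1.25, whereas Snrpa, also of U1, was at 42.3 and 59.6 FPKM, a difference of 0.49. For U2, Snrpb2 was at 25.8 and 13 FPKM, a difference of -0.94. Its partner Snrpa1 was at 2.39 and 4.17 FPKM, a difference of 0.61. So in each snRNP 1 protein gene was below and 1 above its WT level, and none of the 4 reached the 3-fold threshold. Snrpa shares 26.1% and Snrpc 16.7% of their 50-base stretches with other annotated genes, which leaves their values less certain.

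None of the 9 SF3 genes was called in either direction, beside 13.6% of all genes called higher and 13.7% lower. With only 9 genes this is not read as a trait of SF3. SF3A, which binds U2 and is needed for U2 to engage the branch site, summed to 42.4 FPKM in the WT and 60.9 FPKM in the KO library. Sf3a1 was at 12.7 and 12.5 FPKM and Sf3a3 at 19.1 and 22.3 FPKM, whereas Sf3a2 was at 10.6 and 26.1 FPKM, a difference of 1.22. Sf3a2 overlaps Plekhj1 on the opposite strand over 18.1% of its exon bases.

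SF3B, the complex that holds the branch site, summed to 196 FPKM in the WT and 201 FPKM in the KO library, with 3 of 6 genes above WT and a median difference of 0.06. Sf3b1, its scaffold and the subunit often mutated in myeloid malignancies, was at 45.5 FPKM in the WT and 38.7 FPKM in the KO library, a difference of -0.23, from about 1654 and 1788 fragments. Sf3b2 was at 31 and 39.6 FPKM, and Sf3b3 at 11.7 and 20.2 FPKM. Sf3b4 was at 34.4 and 62 FPKM, a difference of 0.83, but 51.2% of its 50-base stretches are shared with other genes, most with the pseudogene Gm7935. A pair of small subunits was below WT: Sf3b5 was at 51.1 and 32 FPKM, a difference of -0.66, and Sf3b6, which contacts the branch site, at 22.6 and 9.03 FPKM, a difference of -1.23.

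The LSm ring genes went both ways. Of 7 compared, 3 were above and 4 below WT. At 3-fold 1 (14.3%, beside 13.6% of all genes) was called higher and 2 (28.6%, beside 13.7%) lower. The sum was 263 FPKM in the WT and 179 FPKM in the KO library. Lsm2 (ENSMUSG00000007050, chromosome 17) was at 95.7 FPKM in the WT and 27.2 FPKM in the KO library, 3.52-fold lower and a difference of -1.78. Lsm3 (ENSMUSG00000034192, chromosome 6) was at 92.2 and 29.1 FPKM, 3.16-fold lower and a difference of -1.63. Both are shared by the nuclear and the cytoplasmic ring. Of the other shared subunits, Lsm4 was at 47.1 and 45.1 FPKM, Lsm6 at 9.42 and 3.89 FPKM, a difference of -1.09, and Lsm7 at 18.8 and 34.3 FPKM, a difference of 0.83. Lsm7 shares 23.3% of its 50-base stretches with other annotated genes.

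Lsm5 (ENSMUSG00000091625, chromosome 6), also shared by both rings, was listed at 0 in the WT library and at 37.7 FPKM in the KO library, from about 117 fragments. Its annotated transcript is 416 nt long, the shortest of the 47 genes, and it shares 35% of its 50-base stretches with pseudogenes, so a value of 0 in the WT library is uncertain. Of the subunits that set the 2 rings apart, Lsm1, of the cytoplasmic ring, was listed at 0 in the WT and at 1.97 FPKM in the KO library, and Lsm8, of the nuclear ring, was listed at 0 in both.

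Of the 2 LSm proteins of U7, Lsm10 was called lower and Lsm11 lay just short of the threshold, and their sum was 59.6 FPKM in the WT and 2.17 FPKM in the KO library. Lsm10 (ENSMUSG00000050188, chromosome 4), which takes the place of SmD1 in the U7 ring, was at 57.2 FPKM in the WT and 2.05 FPKM in the KO library, 27.9-fold lower and a difference of -4.25, from about 271 and 12.4 fragments. No 50-base stretch of Lsm10 was found in another gene. Lsm11, which takes the place of SmD2, was at 2.32 and 0.12 FPKM, a difference of -1.57, from about 88 and 5.78 fragments. Its call turned on the pseudocount, since its plain ratio was 19.4-fold and its difference was -3.46 with a pseudocount of 0.1. Of the LSm proteins outside the rings, Lsm12 (ENSMUSG00000020922, chromosome 11) was at 71.9 FPKM in the WT and 16.8 FPKM in the KO library, 4.29-fold lower and a difference of -2.04. Lsm14a, a P body protein that represses translation, was at 9.54 and 17.2 FPKM, a difference of 0.79, and Lsm14b was at 4.55 and 4.29 FPKM.

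All 5 Prpf genes of the U4/U6 and U5 particles were above WT in the KO library. At 3-fold 1 (20%, beside 13.6% of all genes) was called higher. The median difference was 1.22, and the sum was 45.6 FPKM in the WT and 81 FPKM in the KO library. Prpf3 (ENSMUSG00000015748, chromosome 3), a U4/U6 protein, was at 0.679 FPKM in the WT and 15.5 FPKM in the KO library, 22.8-fold higher and a difference of 3.29, from about 10.9 and 315 fragments. Its partner Prpf4 was at 0.775 and 3.08 FPKM, a difference of 1.2, and Prpf31, also of U4/U6, was at 2.25 and 6.55 FPKM, a difference of 1.22. Prpf6, which bridges U5 and U4/U6, was at 5.47 and 18 FPKM, a difference of 1.55. Prpf8, the U5 protein at the catalytic centre, had the highest level of the 5 and was nearly level, at 36.5 and 37.9 FPKM, from about 1551 and 2050.2 fragments. The 4 genes that differed by over 1 on the log2 scale were those under 6 FPKM in the WT library. The WT level is itself part of the difference, so this only describes where the values lie.

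Of the other 8 Prpf genes, 1 was called lower and 1 higher (12.5% each, beside 13.7% and 13.6% of all genes). Prpf38a (ENSMUSG00000063800, chromosome 4), which joins with the tri-snRNP, was at 3.8 FPKM in the WT library, from about 33.8 fragments, and was listed at 0 in the KO library. Its relative Prpf38b was at 20.5 and 43.6 FPKM, a difference of 1.06. Prpf39, a U1-associated protein, was at 6.46 and 1.84 FPKM, a difference of -1.39. Prpf40b (ENSMUSG00000023007, chromosome 15) was listed at 0 in the WT and at 2.11 FPKM in the KO library, from about 27.7 fragments. Prpf19, the ubiquitin ligase of the Prp19 complex (NTC), was at 23.8 and 8.74 FPKM, a difference of -1.35. Prpf18, which acts in the second step of splicing, was at 5.93 and 7.32 FPKM, and the kinase Prpf4b at 18.2 and 20.4 FPKM.

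**Figure D2:**
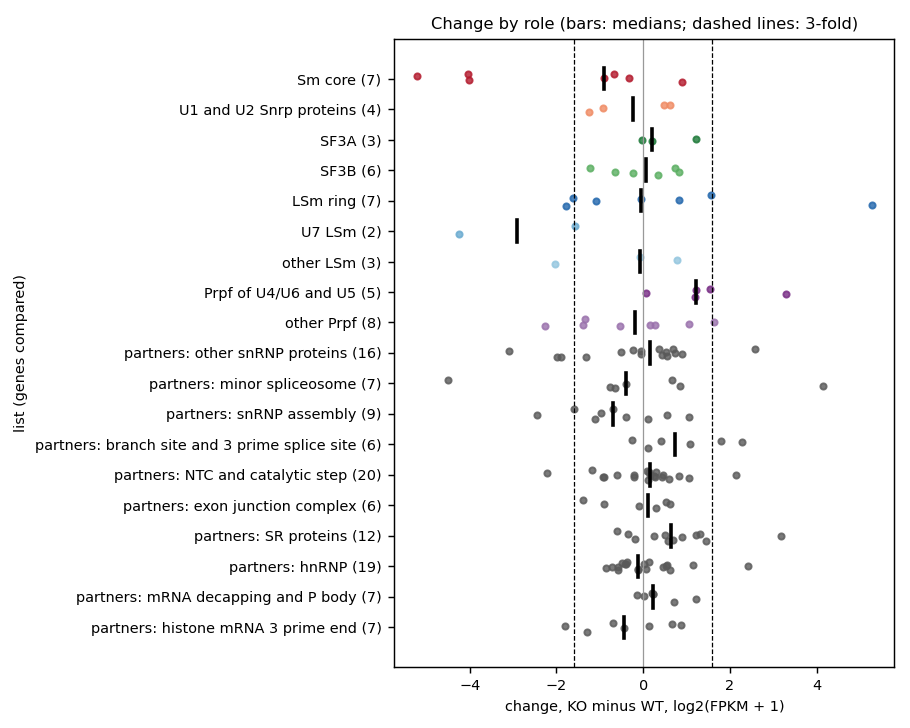
Difference of each gene compared in log2(FPKM + 1), KO minus WT, by role for the 47 genes (coloured) and for lists of partner genes (grey), with black bars for medians, dashed lines at 3-fold and the number compared in brackets. The Sm core has its median at -0.90 and the Prpf genes of U4/U6 and U5 at 1.22, and the medians of the partner lists run from -0.69 to 0.74. In both of these groups and in the partner lists most genes lie between the dashed lines.

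The partners of these proteins were taken from 10 lists by role, of which 120 of 124 genes were in the table and 109 were compared. Of these, 62 were above and 47 below WT, 7 (6.42%, beside 13.6% of all genes) were called higher and 8 (7.34%, beside 13.7%) lower, and the median difference was 0.13. The 9 genes compared that assemble Sm rings on snRNA, the SMN and PRMT5 complexes among them, had a median of -0.69, with 2 called lower and 0 higher. The 2 called were Gemin4 of the SMN complex, at 4.43 FPKM in the WT and listed at 0 in the KO library, and Clns1a, which lay just past the threshold. Wdr77, the partner of PRMT5, was at 3.78 and 8.91 FPKM, a difference of 1.05, and Clns1a, a chaperone that carries Sm proteins, was at 7.78 and 1.92 FPKM, a difference of -1.59. Of 16 other snRNP proteins compared, 8 were above and 8 below WT, with 1 called higher and 3 lower. Snrnp40, a U5 protein, was listed at 0 in the WT and at 4.96 FPKM in the KO library. In this list Snrnp200, the helicase that unwinds U4/U6, was lower in the KO library, at 23.6 FPKM in the WT and 5.24 FPKM in the KO library, a difference of -1.98. Usp39 of the tri-snRNP was at 15.4 and 0.921 FPKM, a difference of -3.09, and Snrnp27 at 26.9 and 6.51 FPKM, a difference of -1.89. The 7 genes compared of the minor spliceosome, which removes a rare class of introns, had 1 called in each direction: Snrnp25 was listed at 0 in the WT and at 16.7 FPKM in the KO library, and Zcrb1 was at 21.5 FPKM in the WT and listed at 0 in the KO library.

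Of the 12 SR proteins, which promote the use of splice sites, 9 were above WT. At 3-fold 1 (8.33%, beside 13.6% of all genes) was called higher and 0 (beside 13.7%) lower. The median difference was 0.63, and the sum was 577 FPKM in the WT and 957 FPKM in the KO library. Srsf9 was at 3.91 FPKM in the WT and 43.7 FPKM in the KO library, a difference of 3.19. The 6 genes compared that recognise the branch site and the 3′ splice site had 5 above WT and 2 called higher (33.3%, beside 13.6% of all genes). Among the genes called was U2af1 at 19.5 and 69.7 FPKM, a difference of 1.79. The 19 hnRNP genes had a median of -0.11 and summed to 1067 and 1041 FPKM, with 1 called higher, Hnrnpll, at 2.09 and 15.5 FPKM. The 20 genes compared of the NTC and the catalytic step had a median of 0.15 and summed to 369.9 and 384 FPKM. In that list Cwc22 was called higher, listed at 0 in the WT and at 3.43 FPKM in the KO library, and Ctnnbl1 lower, at 7.97 and 0.939 FPKM. The exon junction complex had 0 of 6 genes called and the mRNA decapping list 0 of 7, with medians of 0.10 and 0.23. The 7 genes compared that act with U7 on histone mRNA had a median of -0.44, but summed to 65.7 FPKM in the WT and 76.9 FPKM in the KO library. In that list Zfp473, a U7 partner, was at 2.51 FPKM in the WT and listed at 0 in the KO library.

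The share of genes called varied with level over the whole table. By the mean of both libraries, 1 of 10 of the 47 genes below 5 FPKM was called lower, beside 22.4% of all genes at that level. From 5 to 20 FPKM it was 1 of 15 (Snrpd3), beside 13.3% of all genes. From 20 to 50 FPKM it was 3 of 13 (Lsm10, Lsm12 and Snrpd1), beside 6.43%, from 50 to 100 FPKM 2 of 3 (Lsm2 and Lsm3), beside 3.9%, and at 100 FPKM and above 1 of 4 (Snrpe), beside 1.47%. The mean of each of these lower genes was carried by its WT level, so the counts describe where the genes lie and are no support for a difference. The 3 higher genes all had a mean under 20 FPKM, where 23.5% of all genes below 5 FPKM and 13.2% of those from 5 to 20 FPKM were called higher. Over the 36 genes with at least 1 FPKM in both libraries, WT and KO levels correlated across genes with a Pearson r of 0.68 and a Spearman rho of 0.64, beside 0.86 and 0.79 over all 7586 such genes. Genes are not independent replicates, and all points come from the same 2 libraries.

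**Figure D3:**
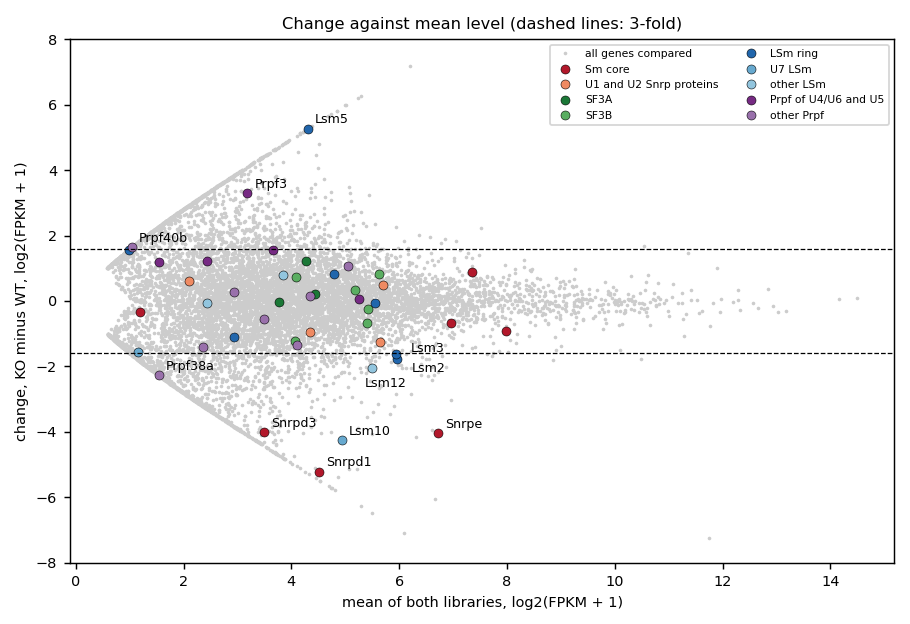
Difference in log2(FPKM + 1), KO minus WT, against the mean level of both libraries in log2(FPKM + 1), with grey points for all 10297 genes compared, coloured points for the 45 genes by role and dashed lines at 3-fold. Snrpe, Lsm2, Lsm3, Lsm12, Lsm10 and Snrpd1 lie below the dashed line at mean levels where few grey points do, while Lsm5, Prpf40b and Prpf38a lie at the edge formed by genes at 0 in a library.

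The genes differed in transcript length, from 416 nt for Lsm5 to 7844 nt for Prpf4b. The median length was 1739 nt over the 45 genes and 2133 nt over all genes compared. Of the 12 genes compared under 1000 nt, 3 encode Sm and 6 encode LSm proteins, and the others are Snrpc, Sf3a2 and Sf3b6. Among these 12, 5 (41.7%) were called lower and 1 higher, with a median difference of -1.24, beside 16.1% called lower and a median of -0.07 over all 1868 genes under 1000 nt. From 1000 to 2000 nt 2 of 14 (14.3%) were called lower, beside 15.8% of all genes, and from 2000 to 4000 nt 1 of 11 (9.09%), beside 13.3%. The 8 genes over 4000 nt, such as Prpf8, Sf3b1 and Sf3b3, had 0 called and a median of 0.02, beside 9.51% called higher and 9.11% lower of all 1756 such genes. Across all 45 genes the difference and log2 length had a Pearson r of 0.16 and a Spearman rho of 0.18, beside 0.04 and 0.05 over all genes. RNA fragments of 200 to 500 bp were selected on a gel, and the part of transcript length in the differences was not tested.

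**Figure D4:**
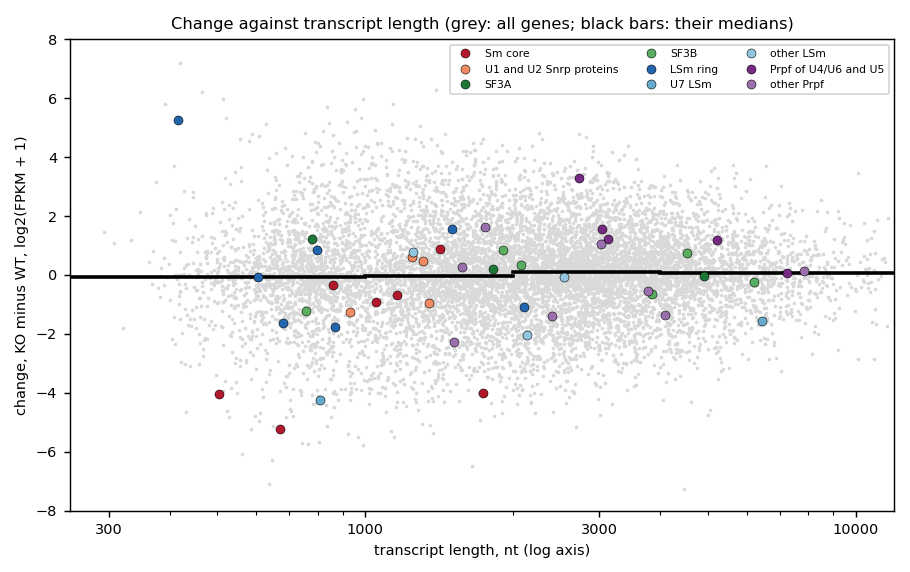
Difference in log2(FPKM + 1), KO minus WT, against transcript length in nt on a log axis, with grey points for all genes with a length, black bars for their medians in 4 length ranges and coloured points for the 45 genes by role. The bars stay close to 0, between -0.07 and 0.11, whereas Snrpe, Snrpd1 and Lsm10 lie below -4 at lengths under 1000 nt, Snrpd3 lies at -4.02 at 1739 nt, Lsm5, the shortest at 416 nt, lies at 5.27, and the genes over 4000 nt lie within the 3-fold range.

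The 47 genes lie on 15 chromosomes, and the 8 lower genes on 7 of them, with Lsm10 and Prpf38a both on chromosome 4. Near copies leave some values uncertain: 13 genes shared over 10% of their 50-base stretches with another annotated gene, and 7 overlapped another gene over more than 10% of their exon bases. Of the 11 genes called, Lsm12 (12.3%), Lsm3 (18.2%) and Lsm5 (35%) were among those with shared stretches. The other 8 genes called shared under 10%.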

How the data were processed

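Poly(A) RNA of sorted ATM was copied with random hexamers and amplified by PCR without strand marking, in 1 library per genotype. The authors deposited FPKM values per gene, and their processing notes name CASAVA 1.8.2, TopHat2 2.0.9, Cufflinks 2.2.1 and mm9. The annotation and any filter were not given in the sources used here. The mutant column was read as the KO library, since the labels give no other. Of 20749 rows, 401 full repeats were dropped and 18 were summed into an identifier already present. Of 20330 identifiers, 20035 (98.5%) had a symbol in GENCODE M21, which also gave types and lengths. Depth was taken from the smallest recurring FPKM times kilobases (1 fragment), 0.17 in the WT and 0.134 in the KO library. Differences used a pseudocount of 1 and a filter of 1 FPKM in at least 1 library (Python 3.11.15, pandas 2.3.3, scipy 1.17.1). The calling rule was checked on simulated data with known changes. Those data left out low genes and held little noise, so the check does not bear on whether the calls here are real. Every member could be named, except 1 that is not reported here, and of each partner list the members past 3-fold and the largest rise and fall. Members and lists were chosen with earlier results of these data known. Alternatives were other pseudocounts, filters, scalings, thresholds and a removed length trend. Txnl4a, Ddx46, Magoh, Symk, Cd68, Ly6g, Ear6 and Trac were not analysed here.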

Additional observations from a re-analysis of the deposited data

How the results depend on the processing

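No paired analysis was possible because there was 1 library per genotype, and for the same reason no library could be left out. The count of 3 genes called higher became 6 with a pseudocount of 0.1 (18.5% of all genes), 6 with 0.01 (18.8%), 0 with at least 1 FPKM in both libraries (5.66%), 5 with both libraries scaled to the same FPKM sum (14.1%), 9 at 2-fold (23.1%) and 6 with 3-fold taken on the plain ratio (18.8%). The count of 8 called lower became 5 with at least 1 FPKM in both libraries (5.89% of all genes) and 14 at 2-fold (22.5%), and was within 1.5 times of 8 under the other settings. It was also 8 with the length trend removed, but there Lsm3 fell short of 3-fold at -1.50 and Lsm11 passed it at -1.60. Of the partners, Clns1a also fell short, at -1.54 with the length trend removed and at -1.56 with the same FPKM sum. The median over the genes stayed between -0.08 and -0.02. Some medians changed sign. That of the LSm ring was 0.074 once the length trend was removed, but -1.09 with at least 1 FPKM in both libraries and -0.58 with a mean of at least 5 FPKM. A mean of at least 5 FPKM gave 0.15 for the other Prpf genes, -0.052 for the other snRNP proteins, 0.13 for the minor spliceosome and 0.13 for histone mRNA 3′ ends, and moved the Sm core to -2.46 and snRNP assembly to -0.15, which was at 0.00 with no filter. With at least 1 FPKM in both libraries the other snRNP proteins were at -0.044 and histone mRNA 3′ ends at 0.13. The filters act by removing genes, and for the length trend the cause was not tested. Without near copies, an alternative chosen after seeing the data, 2 genes were higher and 6 lower. Scaling to the same sum moved the median of all genes from 0.03 to 0.07. Values that rest on a few fragments are limited by depth, and whether a value listed at 0 is a failed estimate was not tested.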
